A study of Mus musculus with 10 samples.

Results

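Transcripts of genes that act late in red cell maturation, in ubiquitin transfer and in the clearance of organelles, were followed in mouse erythroleukemia (MEL) cells with and without tagged BCL11A. The genes asked for were Ube2h, Ube2o, Trim58, Ube2l6, Bnip3l, Ulk1, Foxo3, Gabarapl1 and Map1lc3b, and a probe set was taken where the platform annotation gave one of these 9 symbols. That rule found 21 of 45101 probe sets, for 8 of the 9 genes. Trim58, a ubiquitin ligase subunit of maturing red cells, had no probe set under its symbol in the annotation used here. Of the 21 probe sets 17 carry 1 symbol and 4 are shared with a second gene, 3 of them between Bnip3l and its pseudogene Bnip3l-ps and 1 between Foxo3 and the non-coding gene Gm38485. An intensity filter, a value above the table median of 30.5 in at least 2 of the 10 arrays, was passed by 19 of them and by 25061 probe sets in all.

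MEL cells are cultured mouse red cell precursors, transformed by Friend virus and arrested before maturation. Total RNA was measured on 10 Affymetrix Mouse Genome 430 2.0 arrays. The subclones are FBB1.5 and FBB1.7, together with FBB1.10 and FBB1.11. Each is 1 clone with 2 arrays, and all stably express BCL11A with a FLAG and biotin tag, and the parental line, also with 2 arrays, does not. All 5 lines carry BirA, the bacterial ligase that attaches biotin to the tag, while no source used here gives the promoter that drives the tagged protein. BCL11A is a zinc finger factor known as a repressor of fetal globin genes, and the design asks which transcripts differ once the tagged protein is present.

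A red cell precursor loses its mitochondria and ribosomes, and most of its other proteins, before it enters the blood. Autophagy, in which Atg8 proteins such as Map1lc3b and Gabarapl1 coat a membrane that encloses cargo, removes mitochondria that carry the receptor Bnip3l on their surface, and the kinase Ulk1 starts the formation of that membrane. Ubiquitin enzymes such as Ube2o and Ube2h mark ribosomal and other proteins for the proteasome, and the forkhead factor Foxo3 activates autophagy genes in erythroid and other cells.

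The MEL lines were erythroid by their markers. Gata1 and Klf1, factors that define the lineage, were above the table median on all 10 arrays. Their means were 2054 to 2350 and 970.6 to 1234 over the 5 lines. Nfe2, Tal1, Epor, Tfrc, Ermap and the dimmer Alas2 (60.78 to 96.5) were also above the table median on all 10. Epb42 was above it on 3, and Slc4a1, the anion exchanger of mature red cells, was below it on all 10. Of 9 tested, each by its brightest probe set, 1 was higher in FBB1.5 (Epb42, 11.1%, beside 2.38% of all tested genes). FBB1.7 had 3 lower (Tal1, Tfrc and Ermap, 33.3%, beside 10.7%), and limma called 0 in FBB1.10 and FBB1.11. The summed level of the 10 erythroid markers on the array was 9700 to 10180 in FBB1.5, and FBB1.7 had 8246 to 8546, FBB1.10 had 9019 to 9410 and FBB1.11 had 10010 to 10570, against 9241 to 9991 in the parental line. The sum of 8 mast cell markers was 4965 to 6303 in FBB1.5, and FBB1.7 had 836.8 to 953.6, FBB1.10 had 2075 to 2606 and FBB1.11 had 1706 to 1737, against 5432 to 6553 in the parental line. Of the 8, Mcpt2, Cpa3 and Tpsb2 were above the table median on all 10 arrays, Cma1 on 9, Kit on 6 and Mcpt4 on 4, while Tpsab1 and Ms4a2 were below it on all 10. Of 6 tested, 1 was lower in FBB1.5 (16.7%, beside 2.38% of all tested genes). FBB1.7 had 3 lower (50%, beside 10.7%), FBB1.10 also 3 (50%, beside 1.81%) and FBB1.11 2 (33.3%, beside 0.184%). The mast cell protease Mcpt2 made up most of the sum, with a mean of 4988 in FBB1.5, and FBB1.7 had 673.1, FBB1.10 had 2096 and FBB1.11 had 1487, against 5453 in the parental line. The sum of lymphoid markers was 253.8 to 284.3 in FBB1.5, and FBB1.7 had 203.4 to 215, FBB1.10 had 207.5 to 208.5 and FBB1.11 had 222.3 to 227.9, against 207.4 to 214.7 in the parental line. FBB1.5 and FBB1.11 thus lay above the parental range. These markers were dim, with 65.93 (Pax5 in FBB1.7) as the highest mean of any line. The widest gaps in FBB1.5 were in Cd3g (51.9 against 24.55 in the parental line) and Ebf1 (27.71 against 5.895). Of 6 lymphoid markers tested, limma called 0 in each subclone. The sum of megakaryocyte markers lay below the parental range of 568.4 to 628 in FBB1.10, at 539 to 543, and overlapped it in the other 3 subclones. The sum of granulocyte and macrophage markers overlapped the parental one in all 4. Of 5 megakaryocyte markers tested, 2 were called in FBB1.7 (40%, beside 10.7%), in opposite directions. Vwf was lower (14.74 against 59.28 in the parental line) and Pf4 higher (232.7 against 167.9). Of 7 granulocyte and macrophage markers tested, 1 was lower in FBB1.7 (14.3%, beside 10.7%), Prtn3 (41.83 against 82.75). In the other 3 subclones limma called 0 of either list. FBB1.7, the line with the lowest erythroid and mast cell sums, also had the most differences below, and FBB1.5, with the highest lymphoid sum, was the line in which Bnip3l differed. The part of any of these markers in those results was not tested. In a bulk sample, fewer cells of a type and less RNA per cell cannot be told apart. As a sign of RNA quality, the actin control gave a ratio of 3' over 5' signal of 1.47 in FBB1.5 1 and 1.8 in parental 2, against 1.06 to 1.22 on the other arrays.

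A few promoter windows are shown because, of the members' windows, those of Ube2h and Gabarapl1 are the ones with a match to a motif searched. The first Ube2h window is set beside the second, since both are starts of 1 gene. Each is the RefSeq window of assembly GRCm38.p6 from 250 bases before to 50 after an annotated start, on the strand of the gene. The capitals mark the GATA site AGATAA and the forkhead sites GTAAACA and ATAAACA.
Ube2h, first start, minus strand, chr6:30304490-30304789: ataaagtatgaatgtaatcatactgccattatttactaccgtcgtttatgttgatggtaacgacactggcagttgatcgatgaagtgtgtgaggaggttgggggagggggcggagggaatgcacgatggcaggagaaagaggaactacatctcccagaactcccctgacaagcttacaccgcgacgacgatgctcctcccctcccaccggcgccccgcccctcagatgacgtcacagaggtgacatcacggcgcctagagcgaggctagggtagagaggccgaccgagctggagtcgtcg
Ube2h, second start, minus strand, chr6:30243754-30244053: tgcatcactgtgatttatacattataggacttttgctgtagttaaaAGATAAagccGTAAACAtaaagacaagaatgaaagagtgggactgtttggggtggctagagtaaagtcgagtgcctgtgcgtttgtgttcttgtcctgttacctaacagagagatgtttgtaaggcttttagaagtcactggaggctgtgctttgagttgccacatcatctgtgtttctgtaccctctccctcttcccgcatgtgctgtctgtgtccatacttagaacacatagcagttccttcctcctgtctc
Gabarapl1, plus strand, chr6:129532942-129533241: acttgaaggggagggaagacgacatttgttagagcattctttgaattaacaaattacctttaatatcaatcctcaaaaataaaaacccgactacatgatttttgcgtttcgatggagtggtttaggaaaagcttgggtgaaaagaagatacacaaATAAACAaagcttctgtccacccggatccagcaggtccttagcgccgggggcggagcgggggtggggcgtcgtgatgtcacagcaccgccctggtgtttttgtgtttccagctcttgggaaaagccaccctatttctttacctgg
The second Ube2h window holds AGATAA 204 bases and GTAAACA 194 bases before the start, with a GC content of 43.7%, and the first holds none of the motifs searched, with 56%. The Gabarapl1 window holds ATAAACA 95 bases before the start. RefSeq windows matched 7 members with 8 windows, and the remaining 5 windows (Ube2l6, Ulk1, Map1lc3b, Foxo3 and Trim58) hold none of the motifs. Counted on both strands of all 32851 windows of this length, AGATAA was in 11.2%, GTAAACA in 3.65% and ATAAACA in 4.6%. The E-box CACGTG (7.15% of all windows), the Klf1 box CCACACCC (3.56%) and the BCL11A motif TGACCA (13.6%) were in 0 of the 8. A letter match is a description of the window and not a binding site.

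Ube2h, a ubiquitin-conjugating (E2) enzyme that works with the CTLH ligase and is known to be induced in maturing red cells, is covered by 4 probe sets, of which 1 was lower in every subclone. Probe set 1438971_x_at had intensities of 143 and 121 in FBB1.5, and FBB1.7 had 87.9 and 96.5, FBB1.10 had 127 and 105 and FBB1.11 had 114 and 117, against 192 and 229 in the parental line. All 8 tagged arrays lay below both parental arrays, as 4.24% of all tested probe sets did. The log2 difference from parental was -1.06 ± 0.13 in FBB1.7 (SE; limma, adjusted p = 0.00023), a fold of 0.48 on the scale of log2(intensity + 16) used throughout. FBB1.5 differed by -0.61 (adjusted p = 0.030), FBB1.10 by -0.78 (0.0096) and FBB1.11 by -0.78 (0.030), each with the same SE. For the mean of the 4 subclones it was -0.81 ± 0.11 (limma, adjusted p = 0.0011). This transcript was the lowest in FBB1.7, 0.45 below FBB1.5 on the log2 scale (difference -0.45 ± 0.13, adjusted p = 0.048), while no other pair of subclones passed and the F test between the 4 did not (adjusted p = 0.19). That pair no longer passed in 14 of 19 alternatives. Among these were the loss of any 1 of 7 arrays (adjusted p up to 0.28), quantile normalization (0.067), median centring (0.061) and the actin ratio in the fit (0.18).

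No left-out array ended the calls in FBB1.7 and for the mean. Any 1 of 4 arrays, left out, ended the FBB1.5 call, any of 2 the FBB1.10 call and any of 5 the FBB1.11 call, among them parental 2 in each case (adjusted p = 0.17, 0.064 and 0.095 without it). With the actin ratio in the fit these 3 calls also ended (adjusted p = 0.053, 0.11 and 0.18), while those in FBB1.7 and for the mean passed (0.014 and 0.035). With the subclone as the unit of replication, that is with the line as a random block, the mean difference of -0.81 had an adjusted p of 0.25.

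The other Ube2h probe sets did not share that pattern. Probe set 1418631_at ranged from 309.8 to 376 on the tagged arrays, against 309.5 and 356 in the parental line. Probe set 1418632_at ranged from 109 to 163 on the tagged arrays, against 125 and 129.8 in the parental line. Probe set 1428791_at ranged from 111 to 157 on the tagged arrays, against 109 and 208 in the parental line, so its parental arrays alone spanned the tagged ones. None of the 3 passed in any subclone, and the lower level of Ube2h thus rests on 1 of its 4 probe sets. The suffix _x_at marks a probe set that may also read other transcripts.

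**Figure D1:**
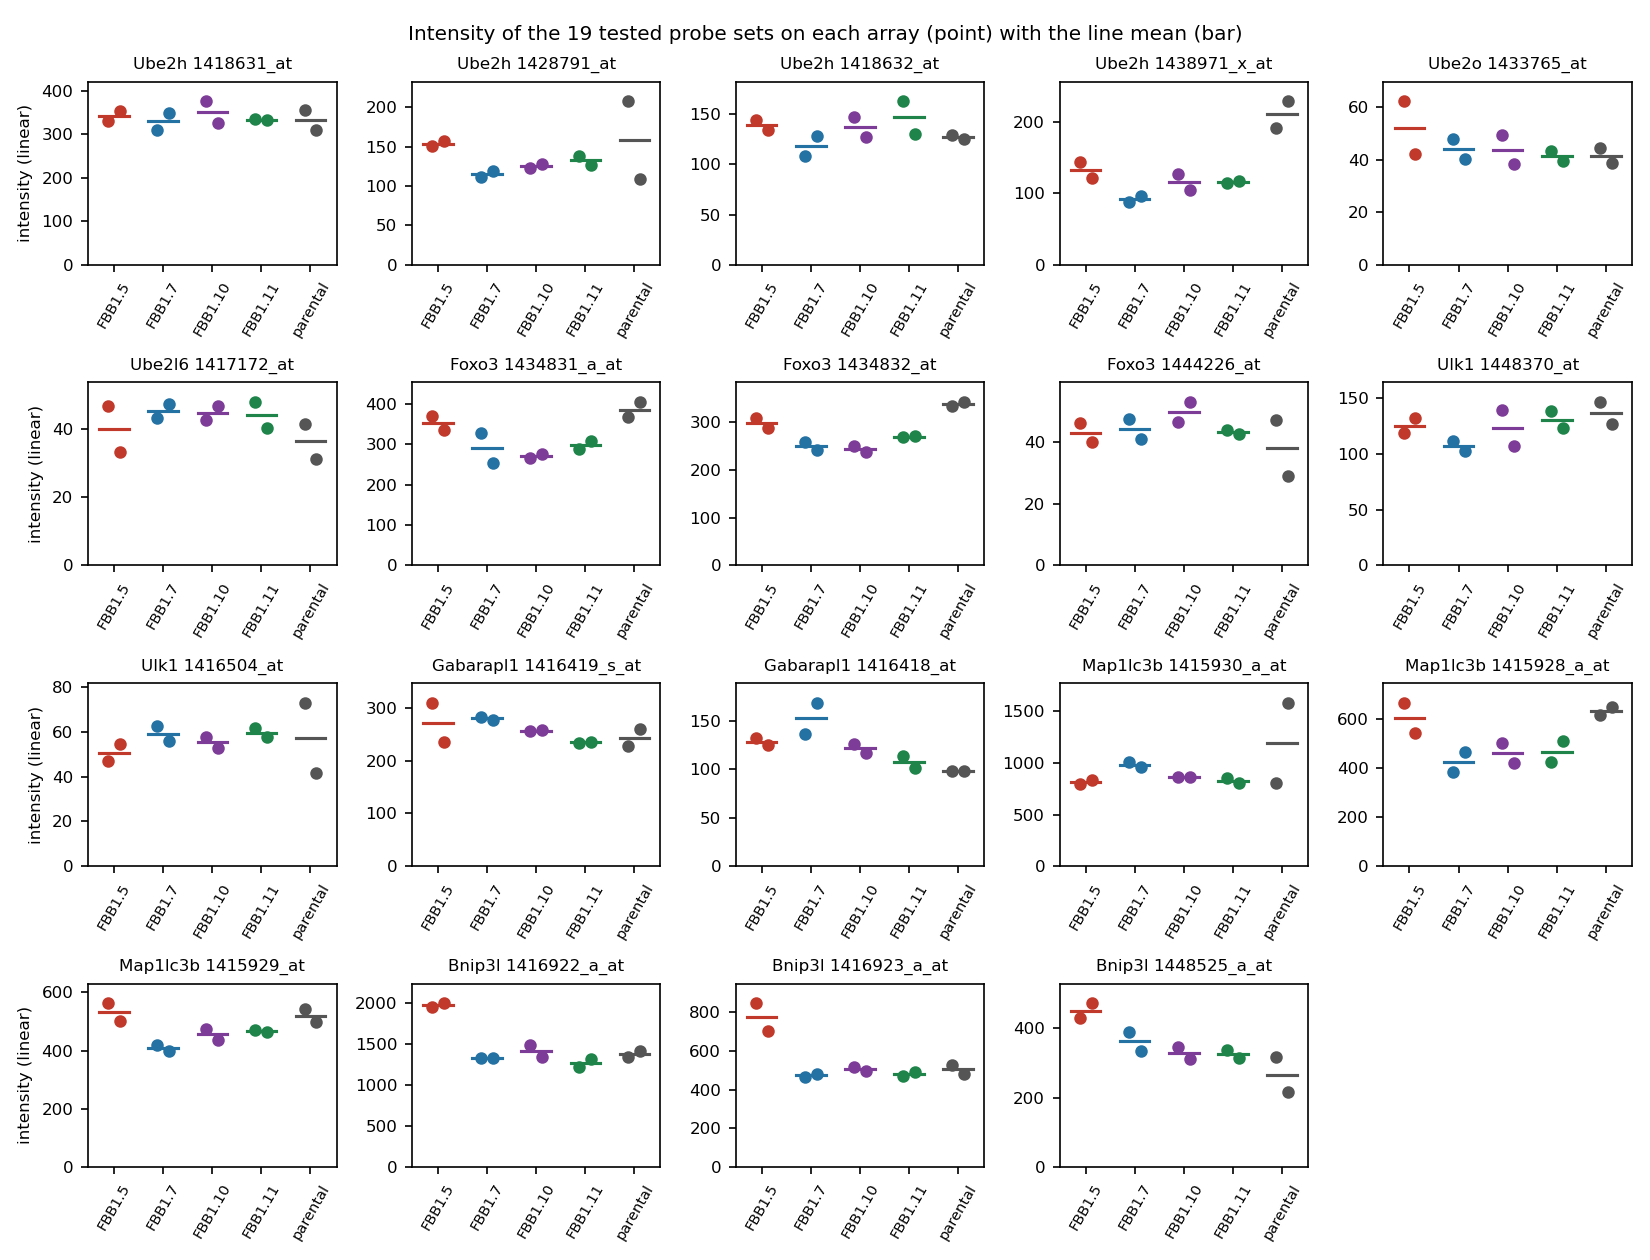
Linear intensity of the 19 tested probe sets, 1 panel each, on every array (points) with the mean of each line (bar); the 4 subclones stand left of the parental line, and each vertical axis starts at 0. The 8 tagged points of Ube2h 1438971_x_at lie at 87.9 to 143, below the parental 192 and 229, and the FBB1.5 points of Bnip3l 1416922_a_at lie at 1952 and 1991.

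Ube2o and Ube2l6, the other 2 ubiquitin enzymes among the members, passed in no comparison. Ube2o, a large enzyme that both conjugates and ligates ubiquitin and is known for clearing ribosomal proteins from reticulocytes, had 62.2 and 42 in FBB1.5, and FBB1.7 had 47.8 and 40.1, FBB1.10 had 49.4 and 38.3 and FBB1.11 had 43.3 and 39.3, against 44.4 and 38.7 in the parental line. Ube2l6, the E2 enzyme of the ubiquitin-like protein ISG15, ranged from 33.3 to 48.1 on the tagged arrays, against 41.5 and 31.4 in the parental line. All these arrays were little brighter than the table median of 30.5, where a difference is hard to see. The 95% interval of the difference from parental was -0.15 to 0.61 in FBB1.5 for Ube2o, and -0.14 to 0.61 in FBB1.7 for Ube2l6, on the log2 scale, so neither gene is shown to be level.

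Foxo3 was lower in FBB1.7 and FBB1.10 on 1 of its probe sets, and a second one had like values. Probe set 1434832_at had 309.4 and 287 in FBB1.5, and FBB1.7 had 259 and 242, FBB1.10 had 251 and 237 and FBB1.11 had 268 and 271, against 333 and 343 in the parental line. All 8 tagged arrays were below both parental ones, as 4.24% of all tested probe sets were. The log2 difference was -0.41 ± 0.10 in FBB1.7 (SE; limma, adjusted p = 0.020), -0.45 in FBB1.10 (adjusted p = 0.040) and -0.33 ± 0.08 for the mean of the subclones (adjusted p = 0.035). FBB1.5 differed by -0.17 (0.47) and FBB1.11 by -0.31 (0.25). With the actin ratio in the fit the calls in FBB1.10 and for the mean ended (limma, adjusted p = 0.21 and 0.28). The FBB1.7 call was lost when parental 2 or either FBB1.7 array was left out (adjusted p up to 0.14) or when the actin ratio entered the fit (0.21), and the calls in FBB1.10 and for the mean ended without any 1 of 7 and 8 arrays (up to 0.21 each).

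Probe set 1434831_a_at of Foxo3 had 369.7 and 335 in FBB1.5, and FBB1.7 had 329 and 255, FBB1.10 had 267 and 275 and FBB1.11 had 289 and 309, against 367 and 405 in the parental line. Only FBB1.5 1 reached the parental range. Its differences of -0.39 in FBB1.7 (limma, adjusted p = 0.053), -0.49 in FBB1.10 (0.058) and -0.34 for the mean (0.066) missed the threshold closely. Under other settings of the fit their adjusted p reached 0.48, 0.36 and 0.51, though FBB1.7 passed under median centring (0.048). The probe set shared by Foxo3 and Gm38485, 1444226_at, was dim, at 39.9 to 53.0 on the tagged arrays, against 29.1 and 47.1 in the parental line, and its differences were above 0 and did not pass. A further Foxo3 probe set, 1450236_at, stayed under the filter with at most 13.6 on any array.

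Ulk1, the kinase at the start of autophagy, passed in no comparison. Its brighter probe set, 1448370_at, ranged from 102 to 139.5 on the tagged arrays, against 127 and 147 in the parental line. The lowest line was FBB1.7, with a difference of -0.31 and a 95% interval of -0.61 to -0.02 (limma, adjusted p = 0.18). Probe set 1416504_at ranged from 46.9 to 62.4 on the tagged arrays, against 41.4 and 73.0 in the parental line, so that the parental arrays enclosed all others.

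The 2 Atg8 members moved in opposite directions in FBB1.7. Map1lc3b, the LC3B protein most used to trace autophagic membranes, was lower there on 2 of its 3 tested probe sets, and Gabarapl1, an Atg8 protein of the GABARAP subfamily, was higher on 1 of 2.

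Map1lc3b probe set 1415928_a_at had 665 and 542 in FBB1.5, and FBB1.7 had 381 and 466, FBB1.10 had 502 and 418 and FBB1.11 had 424 and 508, against 616 and 645 in the parental line. The FBB1.5 arrays lay around the parental level and the other 3 subclones below it. The difference from parental was -0.56 ± 0.13 in FBB1.7 (SE; limma, adjusted p = 0.014). FBB1.10 differed by -0.45 (0.11), FBB1.11 by -0.43 (0.21) and FBB1.5 by -0.07 (0.86). Probe set 1415929_at had 562 and 501 in FBB1.5, and FBB1.7 had 418 and 399, FBB1.10 had 473 and 437 and FBB1.11 had 470.4 and 465, against 541 and 498 in the parental line. It differed from parental by -0.33 ± 0.10 in FBB1.7 (limma, adjusted p = 0.044). FBB1.7 was also below FBB1.5 on both, by differences of -0.49 and -0.36 (adjusted p = 0.028 each), and neither passed without FBB1.5 1 or FBB1.7 1 (up to 0.29).

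The first FBB1.7 call ended without parental 2 or FBB1.7 1 (adjusted p = 0.059 and 0.17), the second without any 1 of 8 arrays, and both when the actin ratio entered the fit (0.23 and 0.20). The third probe set, 1415930_a_at, had 799 to 1005 on the tagged arrays, against 803 and 1583 in the parental line, and passed nowhere. Another, 1428024_at, had at most 20.2 on any array and was not tested.

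Gabarapl1 probe set 1416418_at had 132 and 125 in FBB1.5, and FBB1.7 had 136 and 169, FBB1.10 had 126 and 116 and FBB1.11 had 114 and 101, against 98.3 and 98.3 in the parental line. All 8 tagged arrays were above both parental ones, as 5.22% of all tested probe sets were. The difference passed in FBB1.7, at 0.55 ± 0.13 (SE; limma, adjusted p = 0.013), and FBB1.5 differed by 0.34 (0.22), FBB1.10 by 0.26 (0.34) and FBB1.11 by 0.11 (0.80). Probe set 1416419_s_at had 234 to 309.9 on the tagged arrays, against 227 and 259.5 in the parental line, and passed nowhere. The call ended without FBB1.7 2 (adjusted p = 0.15) and when the actin ratio entered the fit (0.11).

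Bnip3l, the receptor through which mitochondria are taken into autophagosomes in reticulocytes, was the member that set FBB1.5 apart. All of its 3 probe sets, which Bnip3l shares with its pseudogene, were higher in FBB1.5 than in the parental line. Probe set 1416922_a_at had 1952 and 1991 in FBB1.5, and FBB1.7 had 1332 and 1331, FBB1.10 had 1484 and 1344 and FBB1.11 had 1213 and 1309, against 1336 and 1414 in the parental line. Probe set 1416923_a_at had 847 and 704 in FBB1.5, and FBB1.7 had 467 and 483, FBB1.10 had 518 and 497 and FBB1.11 had 469.5 and 492, against 530.3 and 483 in the parental line. On both, FBB1.5 had the highest mean of the 5 lines. Of the other lines, FBB1.11 had the lowest mean on the first. The differences of FBB1.7, FBB1.10 and FBB1.11 from parental did not pass on either. The differences from parental in FBB1.5 were 0.52 ± 0.08 (SE; limma, adjusted p = 0.0025), a 1.43-fold higher level, and 0.59 ± 0.10 (adjusted p = 0.0069), 1.51-fold.

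The third, 1448525_a_at, had 429 and 471 in FBB1.5, and FBB1.7 had 389 and 335, FBB1.10 had 346 and 312 and FBB1.11 had 336 and 315, against 316 and 215 in the parental line. Here the parental arrays differed widely, and the parental line had the lowest mean. FBB1.5 was 0.75 ± 0.14 higher (limma, adjusted p = 0.015), FBB1.7 differed by 0.44 (0.066), and the mean of the subclones by 0.45 ± 0.11 (0.042). Without parental 2 the third probe set passed neither in FBB1.5 (difference 0.49, adjusted p = 0.088) nor for the mean (0.19, adjusted p = 0.56). The FBB1.5 call also ended without either FBB1.5 array (up to 0.12). The call for the mean ended without any 1 of 8 arrays, under median centring (0.051) and with the actin ratio in the fit (difference 0.18, adjusted p = 0.62). The FBB1.5 call of 1416922_a_at held whichever array was left out, and that of 1416923_a_at ended without FBB1.5 1 (0.067).

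Between subclones, 1416922_a_at and 1416923_a_at differed by the F test (limma, adjusted p = 0.00047 and 0.0016), and 1448525_a_at did not pass (0.17). FBB1.5 was above each of the other 3 subclones on the first 2. On 1416922_a_at, FBB1.7 minus FBB1.5 was -0.56 (adjusted p = 0.00033), FBB1.10 minus FBB1.5 was -0.48 (0.0026) and FBB1.11 minus FBB1.5 was -0.64 (0.00066). The other 3 subclones did not differ from each other on any Bnip3l probe set by the test. The F tests and the 2 differences between FBB1.7 and FBB1.5 passed under every alternative tried.

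Bnip3l lies on chromosome 14, at chr14:66985238-67008877 of GRCm38.p6, and in FBB1.5 genes of that chromosome lay above the parental level. Over its 440 tested genes, each by its brightest probe set, the median log2 difference of FBB1.5 from parental was 0.24. Of these, 358 were above 0, and 82 genes (18.6%) were called higher and 4 lower. Of its 141 genes with a mean intensity above 200, 46 (32.6%) had a difference as large as that of the brightest Bnip3l probe set, and of 3975 such genes on other chromosomes 30 (0.755%) did. The median of chromosome 14 in FBB1.7 was -0.0049, and FBB1.10 had 0.021 and FBB1.11 had 0.0050. Chromosome 12, which holds Bnip3l-ps, had a median of 0.0048 in FBB1.5. The part of the chromosome-wide shift in the Bnip3l difference was not tested.

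The nearest tested genes around Bnip3l varied. Ppp2r2a, a regulatory subunit of protein phosphatase 2A and the next tested gene after it, had 390.0 and 352 in FBB1.5, against 234 and 239.6 in the parental line, a difference of 0.61 ± 0.10 (SE; limma, adjusted p = 0.0064). Dpysl2, a cytoskeletal protein of axons and the next tested gene before it, had 143 and 149 in FBB1.5, against 119.9 and 111 in the parental line (0.31 ± 0.12, adjusted p = 0.23). Farther out, Trim35 was higher in FBB1.5 (0.55, adjusted p = 0.016), and Stmn4, Cdca2 and Kctd9 did not pass (differences of -0.37, 0.09 and 0.07).

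**Figure D2:**
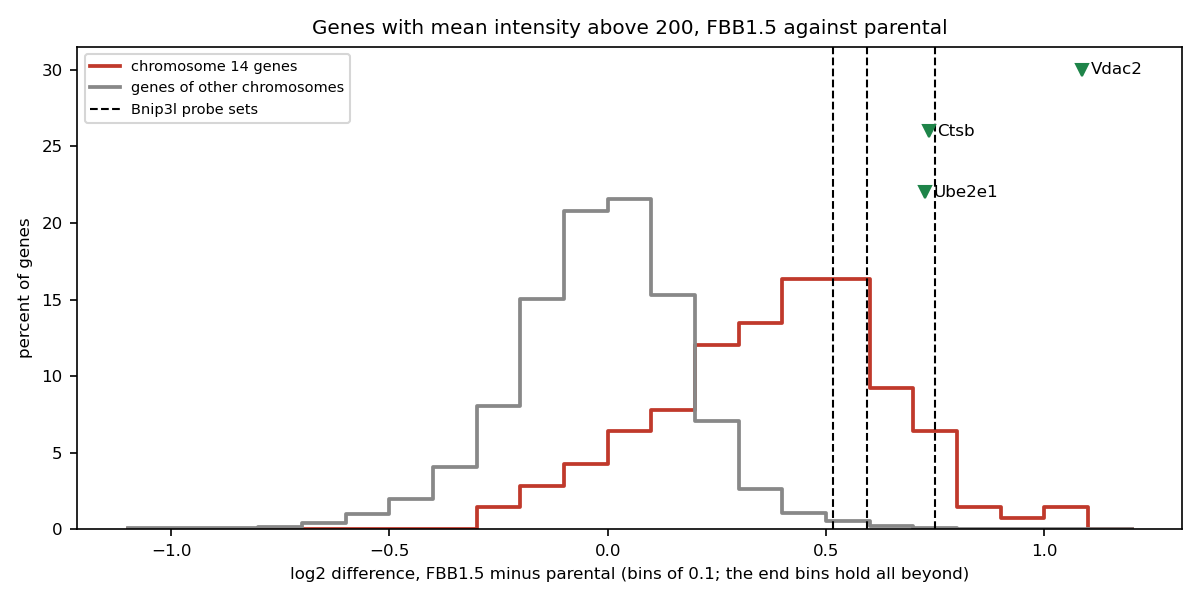
Share of genes (vertical axis, percent) by the log2 difference of FBB1.5 minus parental (horizontal axis, bins of 0.1) for the 141 chromosome 14 genes and the 3975 genes of other chromosomes with a mean intensity above 200. Dashed lines mark the 3 Bnip3l probe sets at 0.52, 0.59 and 0.75, within the bulk of the chromosome 14 curve or at its right side, and triangles, whose height has no meaning, mark Vdac2, Ctsb and Ube2e1.

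Counted over all 19 tested probe sets, the calls came from 5 of the 8 genes. In FBB1.5 the test called 4, of which 3 were higher (all of Bnip3l) and 1 lower, beside 2.02% of all tested probe sets (1.29% higher and 0.734% lower). In FBB1.7 it called 5, of which 1 was higher and 4 lower, beside 10.1% (4.55% and 5.5%). The 2 called in FBB1.10 were both lower, beside 1.8% in either direction and 0.718% lower. The 1 called in FBB1.11 was lower, beside 0.188% and 0.112%. For the mean of the 4 subclones it called 3, of which 1 was higher and 2 lower, beside 3.54% (1.98% and 1.56%), and between the subclones by the F test 2, beside 7.24%. The share of the 19 was above that of all probe sets in each of these comparisons, and nearest to it in the F test. The members were chosen with earlier results of these data known, so these shares cannot show that they differ more often than other genes. The call in FBB1.11 was a Ube2h probe set, which was also called in each other subclone against the same parental arrays. The counts are small, and several calls come from probe sets of 1 gene, so they are not counts of independent members. The median log2 difference of the 19 was 0.04 in FBB1.5 and 0.02 for all probe sets. FBB1.7 had -0.09 and 0.0037, FBB1.10 had 0.0036 and 0.02, and FBB1.11 had -0.06 and 0.01.

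Between single subclones the calls gathered on pairs with FBB1.5. FBB1.7 minus FBB1.5 gave 5 lower probe sets of 3 genes (Map1lc3b, Bnip3l and Ube2h). Of all probe sets, 9.44% were called in either direction and 5.76% lower. FBB1.10 minus FBB1.5 gave 2 lower, beside 3.92% and 2.06%, and FBB1.11 minus FBB1.5 gave 2 lower, beside 1.32% and 1.06%. In each of these 2 pairs both probe sets were of 1 gene, Bnip3l. The other 3 pairs gave 0 member probe sets by limma, beside 0.124%, 3.29% and 0.267%, with 1 each at an unadjusted p under 0.05. With the line as a random block, limma called 0 member probe sets and 0% of all. At an unadjusted p under 0.05 there were 6 member probe sets and 2190 in all. The comparisons with the parental line share its 2 arrays, so their values are not independent of each other.

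**Figure D3:**
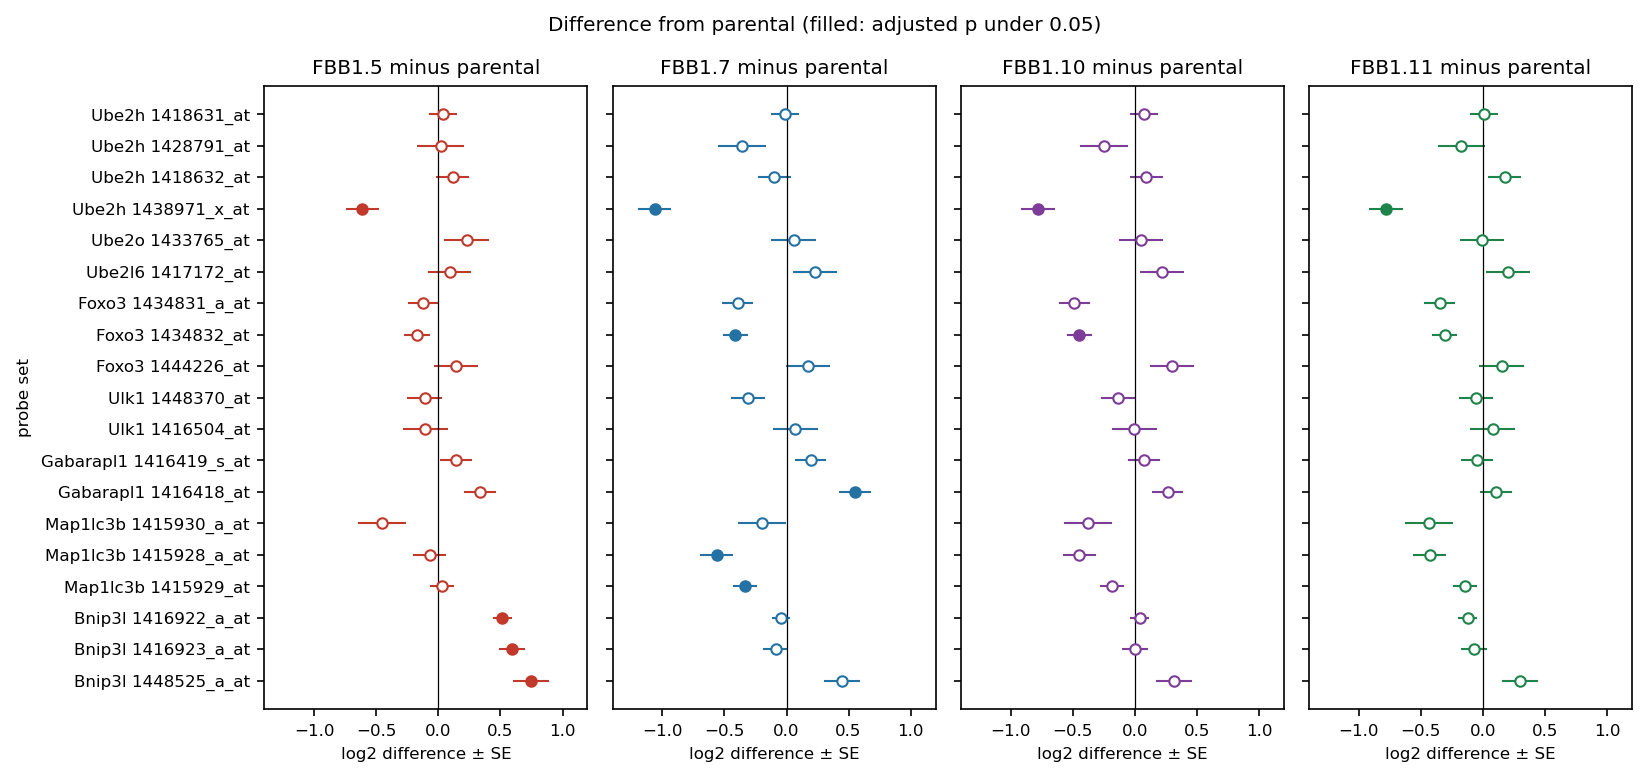
Log2 difference from parental (horizontal axis, with bars of 1 SE) of the 19 tested probe sets, 1 panel for each subclone; filled points have an adjusted p under 0.05 by limma. Ube2h 1438971_x_at is filled in all 4 panels, from -0.61 in FBB1.5 to -1.06 in FBB1.7, and the 3 Bnip3l probe sets are filled in FBB1.5 alone.

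The spread within the parental line bears on these values. On 5 of the 19 tested probe sets the 2 parental arrays differed by over 1.4-fold (16.2% of all probe sets did), against 2 in FBB1.5 (14.2%) and 0 in each other subclone (12% in FBB1.7, 9.45% in FBB1.10, 10.4% in FBB1.11). The widest parental pairs were Map1lc3b 1415930_a_at, Ube2h 1428791_at and Ulk1 1416504_at, at 1.97-fold, 1.90-fold and 1.76-fold.

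The other genes of these pathways were taken as 8 lists with 114 measured genes, each by its brightest probe set. In FBB1.5, 3 were higher and 2 lower (4.39%, beside 2.38% of all 12502 genes). In FBB1.7, 6 were higher and 16 lower (19.3%, beside 10.7%). FBB1.10 had 2 higher and 2 lower (3.51%, beside 1.81%), and FBB1.11 had 0 by limma (beside 0.184%). With the actin ratio in the fit, FBB1.7 had 3 higher and 4 lower (6.14%, beside 3.72%), with 6 of the 22 calls kept, and FBB1.10 kept 0 of its 4. Without FBB1.7 1, FBB1.7 had 3 called (2.63%, beside 3.7%), and without FBB1.7 2 it had 7 (6.14%, beside 4.46%).

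All 3 pathway genes that were higher in FBB1.5 lie on chromosome 14, as Bnip3l does, which holds 4 of the 114. Vdac2, a porin of the outer mitochondrial membrane, had an intensity of 3012 ± 40.3 in FBB1.5 and 1410 ± 72.9 in the parental line (SD, n = 2 arrays each; limma, adjusted p = 5.3e-06). Ctsb, the lysosomal protease cathepsin B, had 3344 ± 364 in FBB1.5 and 1998 ± 41.7 in the parental line (limma, adjusted p = 0.00048), on 2 of 5 probe sets. Ube2e1, an E2 enzyme, had 1157 ± 17.9 in FBB1.5 and 695.3 ± 77.5 in the parental line (limma, adjusted p = 0.0029), on 1 of 2. The calls of these 3 genes held whichever array was left out and with the actin ratio in the fit.

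Foxo factors and genes known as Foxo targets had median differences below 0 in all 4 subclones. Of 13 measured, 1 was higher and 4 lower in FBB1.7 (38.5%, beside 10.7% of all genes). FBB1.10 had 1 higher and 1 lower (15.4%, beside 1.81%). The median differences were -0.31 in FBB1.7 and -0.25 in FBB1.10, against -0.02 and 0.0044 for all genes. In FBB1.5 and FBB1.11 0 of the 13 passed (beside 2.38% and 0.184%), with medians of -0.20 and -0.23, against 0.01 and 0.0026. Sesn3, a stress protein that restrains mTORC1, had 208 ± 9.6 in FBB1.7 and 256 ± 11 in FBB1.10, against 408 ± 29.9 in the parental line (SD, n = 2; limma, adjusted p = 0.00027 and 0.016). Cited2, a transcriptional coregulator, had 209 ± 30.5 in FBB1.7, against 357 ± 40 in the parental line (limma, adjusted p = 0.0032). Sod2, the mitochondrial superoxide dismutase, went the other way, with 1541 ± 29.7 in FBB1.7 and 1541 ± 74.5 in FBB1.10, against 1162 ± 52.9 in the parental line (limma, adjusted p = 0.0063 and 0.024). In FBB1.7 both tested probe sets of Sesn3 were called, 1 of 2 of Cited2 and 2 of 4 of Sod2. In FBB1.10 it was 1 of 2 of Sesn3 and 1 of 4 of Sod2. No left-out array ended the Sesn3 call in FBB1.7, and each of the other calls ended without any 1 of 1 to 3 arrays. With the actin ratio in the fit the calls of Sesn3 and Sod2 in FBB1.7 passed (adjusted p = 0.014 and 0.039), and those of Cited2 in FBB1.7 (0.10) and of Sesn3 and Sod2 in FBB1.10 (0.15 and 0.080) did not.

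Of the 11 measured subunits of the CTLH ligase, the partner of Ube2h, 2 were lower in FBB1.5 (18.2%, beside 2.38% of all genes). FBB1.7 also had 2 lower (18.2%, beside 10.7%), and limma called 0 in FBB1.10 and FBB1.11 (beside 1.81% and 0.184%). Ranbp10, a scaffold of the complex, had 132.5 ± 22.9 in FBB1.5, and FBB1.7 had 129 ± 5.3, against 202 ± 17.2 in the parental line (SD, n = 2; limma, adjusted p = 0.044 and 0.012). Its level was also low in FBB1.10, at 141.8 ± 18.8, and in FBB1.11, at 119 ± 2.3, where it did not pass (0.096 and 0.057). Rmnd5a, a catalytic RING subunit, had 286 ± 13.5 in FBB1.7, against 419 ± 2.2 in the parental line (adjusted p = 0.0064 by limma). Ypel5 had 207 ± 49.0 in FBB1.5, against 318 ± 3.2 in the parental line (adjusted p = 0.033 by limma). Each of the 3 genes was called on 1 of 2 probe sets. These calls ended without any 1 of 1 to 7 arrays, and all with the actin ratio in the fit (adjusted p from 0.056 to 0.14). Among 26 other E2 enzymes, 4 were higher and 2 lower in FBB1.7 (23.1%, beside 10.7%). Ube2q2 had 99.1 ± 15.5 there, against 174 ± 17.2 in the parental line (adjusted p = 0.0051 by limma). Ube2d3 had 2725 ± 93.0 in FBB1.7 and 2901 ± 218 in FBB1.10, against 1941 ± 539 in the parental line (adjusted p = 0.022 and 0.032 by limma), on 1 of 7 probe sets, and passed in neither without parental 2 or with the actin ratio in the fit (0.74 and 0.24). Of 3 measured ISG15 genes, 1 was lower in FBB1.7 (33.3%, beside 10.7%). This was Trim25, a ubiquitin ligase, at 150.2 ± 6 against 255 ± 44.7 in the parental line (adjusted p = 0.0051 by limma). Trim25 was called on 2 of 3 probe sets. The Ube2q2 and Trim25 calls each ended without FBB1.7 1 (adjusted p = 0.080 and 0.058) and passed with the actin ratio in the fit (0.031 and 0.030).

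Of 16 genes of autophagy initiation, 3 were lower in FBB1.7 (18.8%, beside 10.7% of all genes). Rb1cc1, the scaffold that holds Ulk1 in its complex, had 74.7 ± 4.7 in FBB1.7, against 123 ± 7.6 in the parental line (SD, n = 2; limma, adjusted p = 0.0062). Ulk2, the kinase closest to Ulk1, had 52.9 ± 4.3 in FBB1.7, against 88.7 ± 5.5 in the parental line (adjusted p = 0.020 by limma). Wipi2, which binds the lipid of the growing membrane, had 156 ± 0.62 in FBB1.7 and 157 ± 13.4 in FBB1.10, against 230.5 ± 8.9 in the parental line (adjusted p = 0.0080 and 0.029 by limma), but its second probe set was higher in FBB1.7. Rb1cc1 was called on 1 of 2 probe sets and Ulk2 on 2 of 3. Each of these calls ended without at least 1 array, and with the actin ratio in the fit (adjusted p from 0.11 to 0.38). Of the 13 genes of the Atg8 family and its conjugation machinery, 0 passed limma's test in any of the 4 subclones, beside 0.184% to 10.7% of all genes, and the difference between these lists was not tested.

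Of 15 measured mitophagy genes and receptors, 2 were lower in FBB1.7 (13.3%, near the 10.7% of all genes). Vdac2 was the 1 called in FBB1.5 (6.67%, beside 2.38%). Pink1, the kinase that marks damaged mitochondria, had 72.2 ± 6.8 in FBB1.7, against 135 ± 11.7 in the parental line (SD, n = 2; limma, adjusted p = 0.018). Fkbp8, an outer membrane protein that can bind LC3, had 315 ± 36.1 in FBB1.7, against 416 ± 19.4 in the parental line (adjusted p = 0.043 by limma). Of 17 lysosome genes, 2 were lower and 1 higher in FBB1.7 (17.6%, beside 10.7%). Npc2, a cholesterol carrier, had 2181 ± 15.8 in FBB1.7, against 2698 ± 112 in the parental line, with all of its 3 probe sets called lower (adjusted p = 0.0056 by limma). Psap, the precursor of the saposins, had 889 ± 25.3 in FBB1.7, against 1189 ± 51.5 in the parental line (adjusted p = 0.013 by limma). The calls of Pink1, Fkbp8, Npc2 and Psap ended without any 1 of 3, 6, 1 and 3 arrays. Pink1 and Psap were each called on 1 of 2 probe sets. With the actin ratio in the fit Npc2 passed (adjusted p = 0.035), and Pink1, Fkbp8 and Psap did not (0.32, 0.44 and 0.18).

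**Figure D4:**
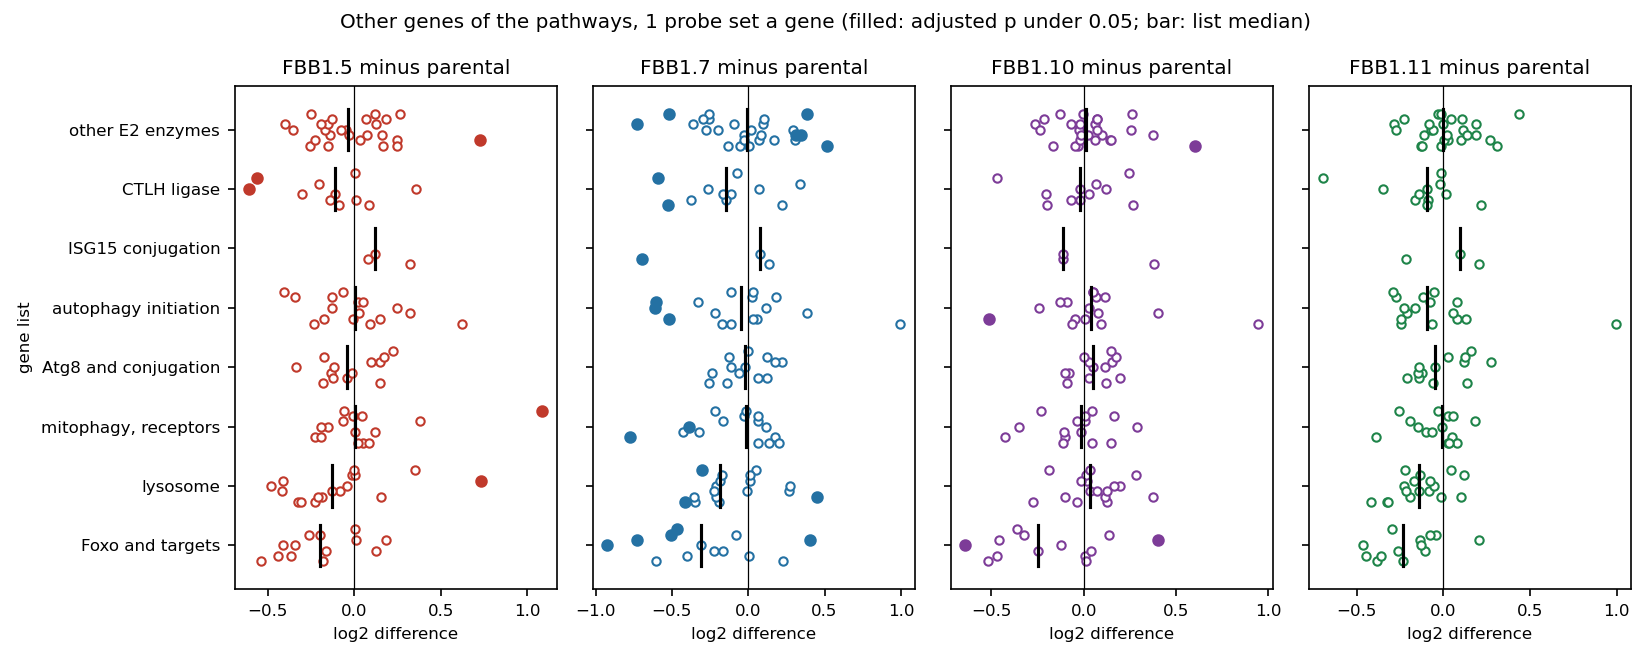
Log2 difference from parental (horizontal axis) of the 114 other pathway genes in 8 lists, 1 panel for each subclone, with a bar at each list's median; filled points passed limma's test. FBB1.7 holds 22 filled points, 16 of them below 0, FBB1.5 holds 5, FBB1.10 holds 4 and FBB1.11 holds 0.

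With each member taken by its brightest tested probe set, the 3 with the smallest F test p were Bnip3l, Foxo3 and Gabarapl1. Dimmer probe sets of Map1lc3b, Gabarapl1 and Ube2h had smaller p than the last 2 of these. The brightest probe sets of Foxo3 and Gabarapl1 did not pass the F test between subclones (limma, adjusted p = 0.26 and 0.58). For the 3 probe sets, the genes with the most similar profile over the 10 arrays were listed by Pearson's r, with no test, since the arrays share 5 lines. The brightest Bnip3l probe set was most like Sugt1 (0.975), Ppp1cb (0.967), Mzt1 (0.964), Vdac2 (0.960) and Med4 (0.958), of which all but Ppp1cb, on chromosome 5, lie on chromosome 14. On chromosome 5, FBB1.5 had a median difference from parental of 0.05 over 793 tested genes. Of these, 30 were called higher (3.78%) and 5 lower, beside 2.38% of all genes in either direction. Foxo3 1434831_a_at was most like 1110038B12Rik (0.929), Phlpp1 (0.928), Gm6607 (0.928), Fsd1 (0.922) and Rtf2 (0.915). Gabarapl1 1416419_s_at was most like Sumo3 (0.929), Ralb (0.913), Ppil4 (0.898), Nadsyn1 (0.892) and Apool (0.884).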

How the data were processed

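Per the labels' protocols, total RNA was copied from an oligo-dT primer and amplified as biotinylated cRNA for hybridisation. The authors deposited 1 linear intensity per probe set and array, and the steps behind it (probe summary, background, scaling) are not given in the sources used here. Sample titles give the groups. The labels do not say whether both arrays of a line stem from separate cultures. The p-values thus reflect the spread between arrays, perhaps only technical, and the number of arrays limits the precision.

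The scale was log2(intensity + 16), on which a difference understates the change of dim genes. After 64 control probe sets were left out, probe sets above the table median in at least 2 arrays were tested. Array medians lay between 29.6 and 31.6 and were not adjusted. With limma 3.58.1 in R 4.3.3, a fit of 5 line means over all 10 arrays (5 residual degrees of freedom, eBayes with an intensity trend) gave each difference, and Benjamini-Hochberg adjustment at 0.05 covered all tested probe sets. The fit with the line as a random block used duplicateCorrelation (consensus 0.211). The functions were tested on simulated data. Of each list, up to 3 passing genes with the smallest p are named, and Trim35, Stmn4, Cdca2 and Kctd9 were chosen after their values were seen. Gene names come from the platform annotation, and positions and promoters from RefSeq (GRCm38.p6). The members and lists were chosen with earlier results of these data known. Alternatives covered the pseudocount, scaling, filter, variance trend, replicate number, actin ratio and left-out arrays.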

Additional observations from a re-analysis of the deposited data

Results flagged for a closer look

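The 2 brighter probe sets shared by Bnip3l and its pseudogene, 1416922_a_at and 1416923_a_at, differed between the 4 subclones by limma's F test (adjusted p = 0.00047 and 0.0016). FBB1.5 averaged 1972 and 775.5, against 1261 to 1414 and 475 to 507 in the other 3 subclones. No group held enough arrays for a check of single arrays.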

How the results depend on the processing

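With 2 arrays a line, many calls lay near the threshold. The counts of members in this section are counts of their probe sets. Leaving out 1 array at a time gave 2 to 5 called members in FBB1.5, FBB1.7 had 2 to 6, FBB1.10 had 0 to 5 and FBB1.11 had 0 to 3, with 1 to 4 for the mean, 2 to 3 by the F test and 0 to 2 with the line as a random block. Without the intensity filter the counts were 2 in FBB1.5, 1 in FBB1.10, 0 in FBB1.11 and 1 for the mean. Without the variance trend FBB1.7 had 2, the mean 1, and FBB1.5, FBB1.10 and FBB1.11 had 0 each. With the actin ratio as a covariate they were 2 in FBB1.7, 0 in FBB1.10, 0 in FBB1.11 and 1 for the mean. Without both arrays of FBB1.5 the line block called 1 member. The cause was not tested. Over all probe sets, the calls ran from 22 (no trend) to 810 (1 array left out) in FBB1.5, beside 507, from 859 to 2637 in FBB1.7, beside 2519, from 1 to 1194 in FBB1.10, beside 450, from 8 to 435 in FBB1.11, beside 47, from 25 to 1468 for the mean, beside 887, from 483 to 2402 by the F test, beside 1814, and from 0 to 128 with the line block, beside 0. The calls of members and of named pathway genes, with a few member differences that missed the threshold, were followed over these settings. Of their values 840 kept direction and call, 217 lost the call, 13 gained it and 0 reversed. Most were calls in the main fit, so few could gain one. Over all 19 tested members in these 7 comparisons, 25 of 2527 values gained a call and 83 lost one. The replicate numbers did not pair the arrays (r of deviations -0.157 to 0.183 over 10 pairs of lines, 1 over 0.1). With the replicate number as a block FBB1.5 had 4 called members, FBB1.7 had 6, FBB1.10 had 2, FBB1.11 had 1, with 3 for the mean and 2 by the F test. Quantile normalization, median centring, a pseudocount of 1 or 64 and a filter on the mean moved no member count by over 1.5 times. These counts leave out the single pairs of subclones.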
